A study of Oryza sativa with 12 samples.

Results

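The ribosomes of chloroplasts and mitochondria descend from bacterial ribosomes and keep the bacterial subunit names, 30S for the small subunit and 50S for the large one. In rice (Oryza sativa) leaf blades, 83 of the 32846 loci in the expression tables were described as a 30S or 50S ribosomal protein, and these 83 loci were chosen by that description alone. Of the 83, 60 were described as chloroplast proteins with no word for a precursor, and they carried 17 protein names, all of which are genes of the plastid genome in the RefSeq rice annotation. They are called plastid-gene copies here, since their locus identifiers place them on nuclear chromosomes while their names are those of plastid genes. The other 23 loci comprised 7 chloroplast precursors, 4 plastid-specific ribosomal proteins (PSRP) and 12 loci whose description names no organelle. The copies held 37 small-subunit and 23 large-subunit loci, and the other loci 5 small-subunit and 18 large-subunit ones.

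Plant plastid ribosomes are assembled from proteins of mixed origin. Some are encoded and translated inside the plastid, and the rest are encoded in the nucleus, made in the cytosol with a transit peptide and imported. In leaves these ribosomes make core photosynthetic proteins, among them the large subunit of Rubisco and reaction-centre proteins of both photosystems. Plant nuclear genomes also carry inserted stretches of plastid DNA, and a nuclear locus of that kind can bear the name of a plastid gene.

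The 12 libraries formed 4 groups of 3: Oshmgb1 mutants at low phosphate (LP), Oshmgb1 mutants at high phosphate (HP), wild type (WT) at low phosphate and WT at high phosphate. All plants were grown for 14 days at high phosphate and then for 7 days at low or high phosphate. OsHMGB1 is a chromatin protein of the high mobility group B family, and the study compared gene expression in its mutants and WT under both phosphate supplies. The labels do not name the allele or the number of mutant lines, give 1 concentration for both supplies, and do not say whether the 3 libraries of a group came from separate plants. The p-values therefore measure the spread between these libraries, which may be technical.

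Values are FPKM (fragments per kilobase of transcript, scaled to the mapped fragments of the library), a level per length, so loci of different length can be compared. The sum of FPKM over all genes was 549457 to 583292 per library, and 16093 to 16976 genes reached an FPKM of 1. Sequencing depth is unknown, since no read counts were used here. LOC_Os06g51220, the locus taken as OsHMGB1, averaged 678 ± 78.7 FPKM in the mutants and 1895 ± 219.5 FPKM in WT when Pi was low (SD, n = 3 each). At high Pi it averaged 539 ± 19.4 FPKM in the mutants and 1232 ± 68.2 FPKM in WT (SD, n = 3 each).

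Two-sided tests were made with limma on log2(FPKM + 1) over the 17630 genes that reached an FPKM of 1 in at least 3 libraries, and a call is a Benjamini-Hochberg adjusted p below 0.05 over all of them. Fold changes on this scale understate the change of low genes. Of the 83 loci, 67 entered the tests: 44 plastid-gene copies and all 23 other loci. The 16 loci left out were all copies, with means of 0.162 to 0.793 FPKM. None of the 67 had passed the filter through the libraries of 1 group alone.

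A pair of libraries stood apart for these loci. The third mutant library at high Pi was the highest of its group for 38 of 44 tested copies (86.4%) and for 20 of 23 other loci (87.0%), against 32.5% of all tested genes. The third mutant library at low Pi was the lowest of its group for 42 of 44 copies (95.5%), against 29.2% of all tested genes, and for 8 of 23 other loci (34.8%). Results on the copies are therefore given below with and without both libraries.

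The most abundant of the 23 other loci were plastid-specific or large-subunit proteins. PSRP1 (LOC_Os03g63950), the plant relative of the bacterial factor that binds idle ribosomes, had a mean of 964 FPKM over the 12 libraries. It made up 47.8% to 62.7% of the summed FPKM of the 23 loci in each library. L31 (LOC_Os01g44210), a large-subunit protein that in bacteria contacts the small subunit, followed at 265 FPKM. The large-subunit PSRP5 (LOC_Os01g17150) averaged 87.1 FPKM and the small-subunit PSRP3 (LOC_Os04g38750) 52.2 FPKM. A large-subunit locus without a protein number in its description (LOC_Os01g59060) averaged 39.1 FPKM. At the other end, 14 of the 23 loci averaged below 20 FPKM, and the lowest was an L17 locus (LOC_Os05g38580) at 2.22 FPKM.

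The group means of these loci lay close together. The highest group mean was 1.06 to 2.2 times the lowest over the 23 loci, with a median of 1.37, and the ratio stayed under 1.5 for 15 of them. PSRP1 had 885, 814 and 958 FPKM in the mutants at low Pi, 1014, 995 and 792 FPKM in the mutants at high Pi. In WT it had 842, 1027 and 877 FPKM at low Pi and 1086, 1257 and 1026 FPKM at high Pi. The 3 WT libraries at high Pi lay above the 3 mutant libraries at high Pi, and in the other comparisons of 1 factor the groups overlapped. PSRP1 passed the test in none of them, with adjusted p-values of 0.221 to 0.867 (limma). L31 had 288, 265 and 252 FPKM in the mutants at low Pi, 276, 279 and 405 FPKM in the mutants at high Pi. In WT it had 223, 205 and 233 FPKM at low Pi and 267, 248 and 239 FPKM at high Pi. Its mutant libraries were above the WT libraries at both supplies without overlap, but the differences did not pass the test (log2 fold 0.28 ± 0.14 SE at low Pi with an adjusted p of 0.2, and 0.32 ± 0.14 SE at high Pi with an adjusted p of 0.214, limma).

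**Figure D1:**
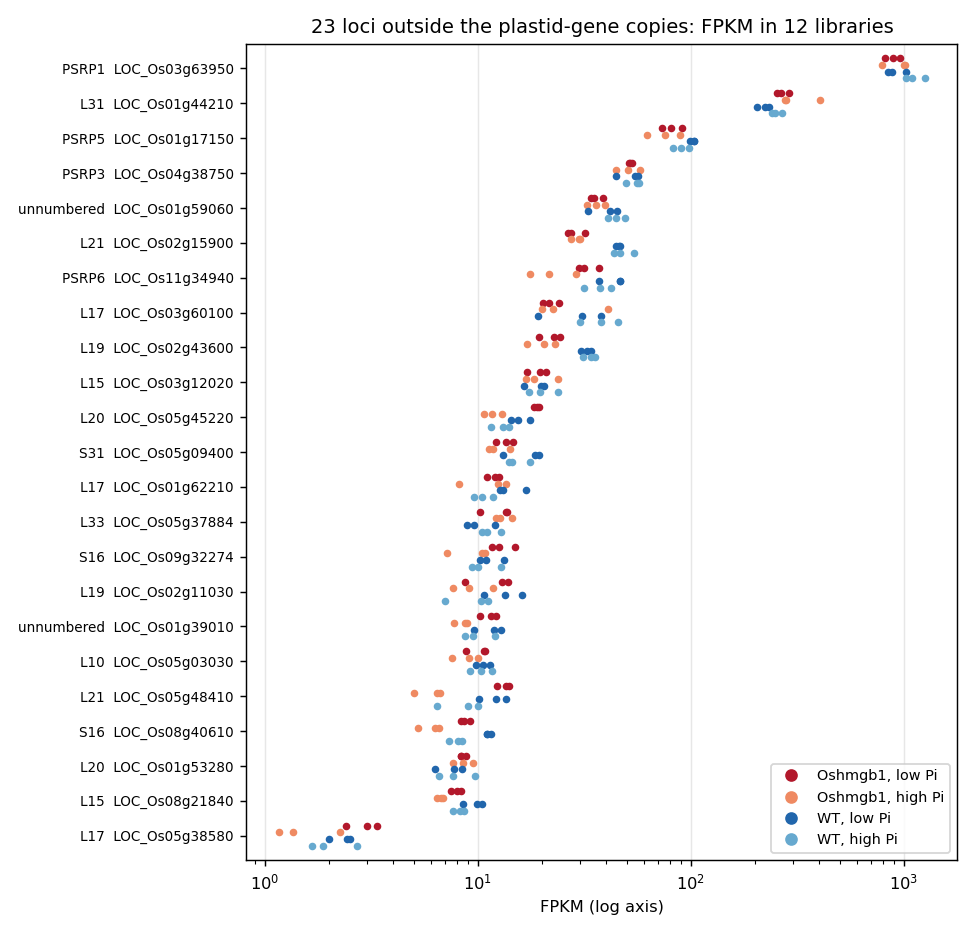
FPKM of the 23 loci outside the plastid-gene copies, 1 point per library on a log axis, coloured by group and sorted by the mean over 12 libraries. PSRP1 at a mean of 964 FPKM and L31 at 265 FPKM lie apart from the rest, and for 15 of the 23 loci the highest group mean is under 1.5 times the lowest.

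The gene ontology terms in the tables did not always match the descriptions. Of the 23 loci, 6 carried a chloroplast or plastid term, 11 a mitochondrial term and 6 neither. Among the 7 described as chloroplast precursors, 4 carried a mitochondrial term: both L19 loci (LOC_Os02g11030 and LOC_Os02g43600) and both L21 loci (LOC_Os02g15900 and LOC_Os05g48410). The organelle of these 4 is therefore uncertain here. Of the 60 copies, 45 carried a chloroplast or plastid term.

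The plastid-gene copies sat in 9 runs of neighbouring locus numbers, except for a lone S7 copy on chromosome 2 (LOC_Os02g24576), and together they lay on 9 chromosomes. The longest run held 18 loci on chromosome 4 (LOC_Os04g16712 to LOC_Os04g16886), and the next held 13 loci on chromosome 10 (LOC_Os10g21196 to LOC_Os10g21372). Within the runs, 38 of 50 neighbouring pairs of proteins are also neighbours in the plastid genome when its ribosomal protein genes are limited to these names. The chromosome 5 run of 4 loci, for example, reads S11, S8, L14 and L16, the order these names have in the plastid genome.

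Most copies were low, and a few names held the higher ones. Their means over the 12 libraries ranged from 0.162 to 64.4 FPKM with a median of 1.5 FPKM, and 50 of 60 were below 5 FPKM. The highest was the single S16 copy (LOC_Os10g21196), followed by an S7 copy (LOC_Os07g25002, 20.8 FPKM) and 2 S14 copies (LOC_Os04g16745, 14.3 FPKM, and LOC_Os10g38238, 14.1 FPKM). S7 and S14 are proteins of the head of the small subunit, and S16 in bacteria is needed for its assembly. S16 alone made up 21.6% to 34.3% of the summed FPKM of all copies in a library, the 8 S7 copies 21.1% to 29.0%, and the 3 S14 copies 12.8% to 22.3%.

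Some copies of 1 protein were nearly equal across runs, while most proteins had a wider spread. Of the 6 S19 copies, 5 averaged 3.09 to 3.29 FPKM although they lie in 5 runs (LOC_Os04g16818, LOC_Os07g25024, LOC_Os08g15266, LOC_Os09g24412 and LOC_Os10g21352). Of the 5 L14 copies, 4 averaged 1.32 to 1.52 FPKM (LOC_Os04g16828, LOC_Os05g22722, LOC_Os08g15276 and LOC_Os10g21342). Over the 15 proteins with several copies, the highest copy mean was 1.65 to 11.2 times the lowest, with a median of 2.58. The widest spreads were those of S7, from 1.86 FPKM at LOC_Os02g24576 to 20.8 FPKM at LOC_Os07g25002, and of L33, from 0.259 FPKM at LOC_Os08g15312 to 2.84 FPKM at LOC_Os10g21308. A pair of L23 copies (LOC_Os07g25014 and LOC_Os09g24402) had the same value to 2 decimals in 9 of 12 libraries and differed by at most 0.06 FPKM. Over all 103 pairs of copies of 1 protein, 4 pairs were identical in 6 or more libraries.

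The labels do not say how reads matching several loci, or the plastid genome, were assigned. Levels of single copies are uncertain for that reason, and the copies of 1 protein cannot be taken as independent measurements. They were therefore also summed by protein, an alternative added after the data were seen, which left 16 proteins that passed the filter.

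**Figure D2:**
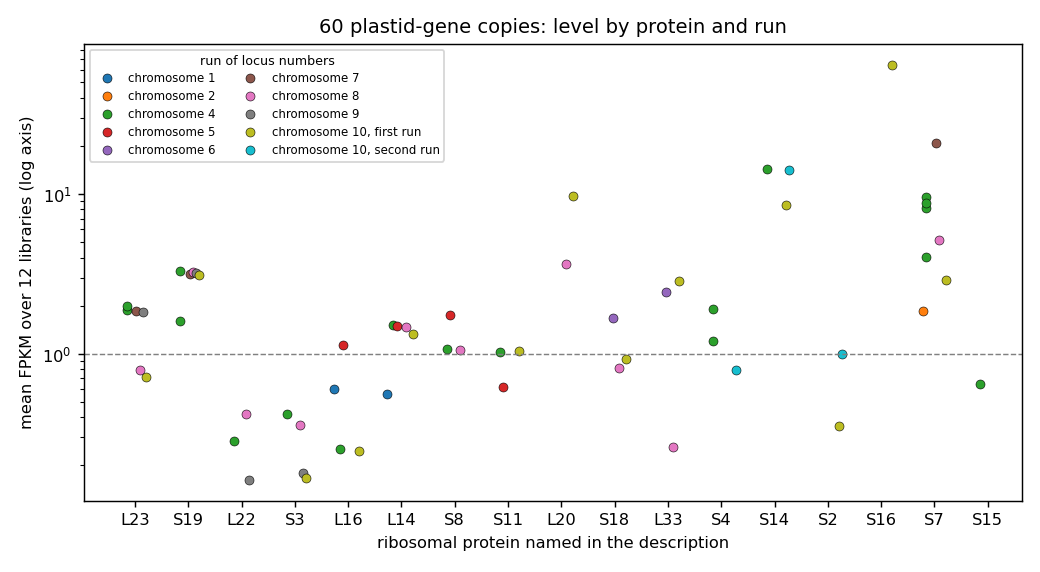
Mean FPKM over 12 libraries of each of the 60 plastid-gene copies on a log axis, grouped by the protein named and coloured by the run of locus numbers it lies in. The dashed line marks an FPKM of 1. Points of 5 S19 copies from 5 runs lie together at 3.09 to 3.29 FPKM, while the S7 copies spread from 1.86 to 20.8 FPKM.

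Most of the remaining tested copies were low as well. L23 copies averaged 0.715 FPKM at LOC_Os10g21358, 1.88 FPKM at LOC_Os04g16782 and 1.98 FPKM at LOC_Os04g16812. L20 averaged 3.67 FPKM at LOC_Os08g15306 and 9.71 FPKM at LOC_Os10g21314, and L33 averaged 2.43 FPKM at LOC_Os06g39718 and 2.84 FPKM at LOC_Os10g21308. The only tested L16 copy, LOC_Os05g22724, averaged 1.13 FPKM. Among small-subunit names, S4 averaged 0.795 FPKM at LOC_Os10g38214, 1.2 FPKM at LOC_Os04g16764 and 1.9 FPKM at LOC_Os04g16738. The S8 copies (LOC_Os04g16832, LOC_Os05g22718 and LOC_Os08g15278) averaged 1.06 to 1.74 FPKM. The S11 copies LOC_Os04g16838 and LOC_Os10g21332 averaged 1.03 and 1.04 FPKM, and the S2 copy LOC_Os10g38278 averaged 1 FPKM. S18 averaged 0.814 FPKM at LOC_Os08g15308, 0.931 FPKM at LOC_Os10g21312 and 1.68 FPKM at LOC_Os06g39716. The sixth S19 copy, LOC_Os04g16772, averaged 1.61 FPKM. S7 averaged 2.89 FPKM at LOC_Os10g21372, 5.13 FPKM at LOC_Os08g15246 and 9.55 FPKM at LOC_Os04g16798. No copy of L22, S3 or S15 passed the filter.

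At low against high Pi in the mutants, 4 loci rose and none fell, and the 4 were all outside the copies: L21 at LOC_Os05g48410, L20 at LOC_Os05g45220, L17 at LOC_Os05g38580 and S16 at LOC_Os08g40610. That is 4 of 67 higher, where 10.5% of all tested genes were called higher and 8.28% lower. Over the 67 loci pooled, the share called was below the background in both directions. By class it was 4 of 23 other loci and 0 of 44 copies. The count of 4 was 3 to 5 with 1 library left out, and whether the class differed from the background was not tested. The median log2 fold was 0.12 over the 23 other loci and -0.33 over the 44 copies, against 0.00 over all genes. At an unadjusted p below 0.05, limma marked 19 of the 67 (28.4%), of which 11 were copies, against 33.2% of all tested genes. Without the third mutant library at high Pi, the median of the 23 other loci was 0.24 and 5 of them rose.

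L21 at LOC_Os05g48410, one of a pair of L21 loci, had 13.5, 14.0 and 12.3 FPKM in the mutants at low Pi, against 6.4, 5.03 and 6.67 FPKM in the mutants at high Pi. All 3 low-Pi libraries lay about 1 log2 unit above the high-Pi ones, with no overlap (log2 fold 1.03 ± 0.16 SE, adjusted p = 0.00136, limma). L20 at LOC_Os05g45220, a protein that in bacteria binds 23S rRNA early in assembly, had 19.3, 18.9 and 18.4 FPKM in the mutants at low Pi, against 11.7, 10.7 and 13.02 FPKM in the mutants at high Pi. It too rose without overlap (log2 fold 0.64 ± 0.10 SE, adjusted p = 0.00195, limma).

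S16 at LOC_Os08g40610, whose description names no organelle, had 8.35, 9.16 and 8.63 FPKM in the mutants at low Pi, against 6.6, 5.23 and 6.31 FPKM in the mutants at high Pi. The groups did not overlap (log2 fold 0.47 ± 0.10 SE, adjusted p = 0.00657, limma). L17 at LOC_Os05g38580 was the lowest of the 4, with 2.39, 3.0 and 3.35 FPKM in the mutants at low Pi, against 1.36, 1.16 and 2.25 FPKM in the mutants at high Pi. Its groups were separated by a narrow gap (log2 fold 0.61 ± 0.18 SE, adjusted p = 0.0346, limma), and the call was lost in 6 of 21 alternatives, among them leaving out the second low-Pi library or the third, or the first high-Pi library or the second.

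In WT at low against high Pi, copies of S7, S14 and L14 fell and a single locus outside the copies rose. Of the 67 loci, 1 rose and 7 fell, where 8.43% of all tested genes were called higher and 4.87% lower. All 7 that fell were copies, 3 of S7, 2 of S14 and 2 of L14. The median log2 fold was -0.48 over the 44 copies, 42 of them negative, and 0.09 over the 23 other loci, against 0.07 over all genes. The locus that rose was S16 at LOC_Os08g40610. Limma marked 34 of the 67 (50.7%) at an unadjusted p below 0.05, 29 of them copies, against 28.1% of all tested genes. Copies of 1 protein are not independent measurements. The count of 7 was 0 without the first WT library at high Pi or the second, 0 without the second WT library at low Pi or the third, and 1 without the third at high Pi or with no filter on low values.

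S16 at LOC_Os08g40610 had 11.05, 11 and 11.5 FPKM in WT at low Pi, against 8.08, 7.35 and 8.45 FPKM in WT at high Pi. It thus rose without overlap in WT (log2 fold 0.44 ± 0.10 SE, adjusted p = 0.0114, limma) as it did in the mutants, and the difference between the 2 responses did not pass the test (0.02 ± 0.13 SE, adjusted p = 0.956, limma). For L21 at LOC_Os05g48410, WT had 12.2, 10.1 and 13.5 FPKM at low Pi, against 9.01, 9.99 and 6.43 FPKM at high Pi. The WT groups did not overlap, but the difference did not pass the test (log2 fold 0.46 ± 0.16 SE, adjusted p = 0.0753, limma). For L20 at LOC_Os05g45220, WT had 15.4, 14.3 and 17.5 FPKM at low Pi, against 13.1, 13.9 and 11.5 FPKM at high Pi, again short of a call (0.27 ± 0.10 SE, adjusted p = 0.111, limma).

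**Figure D3:**
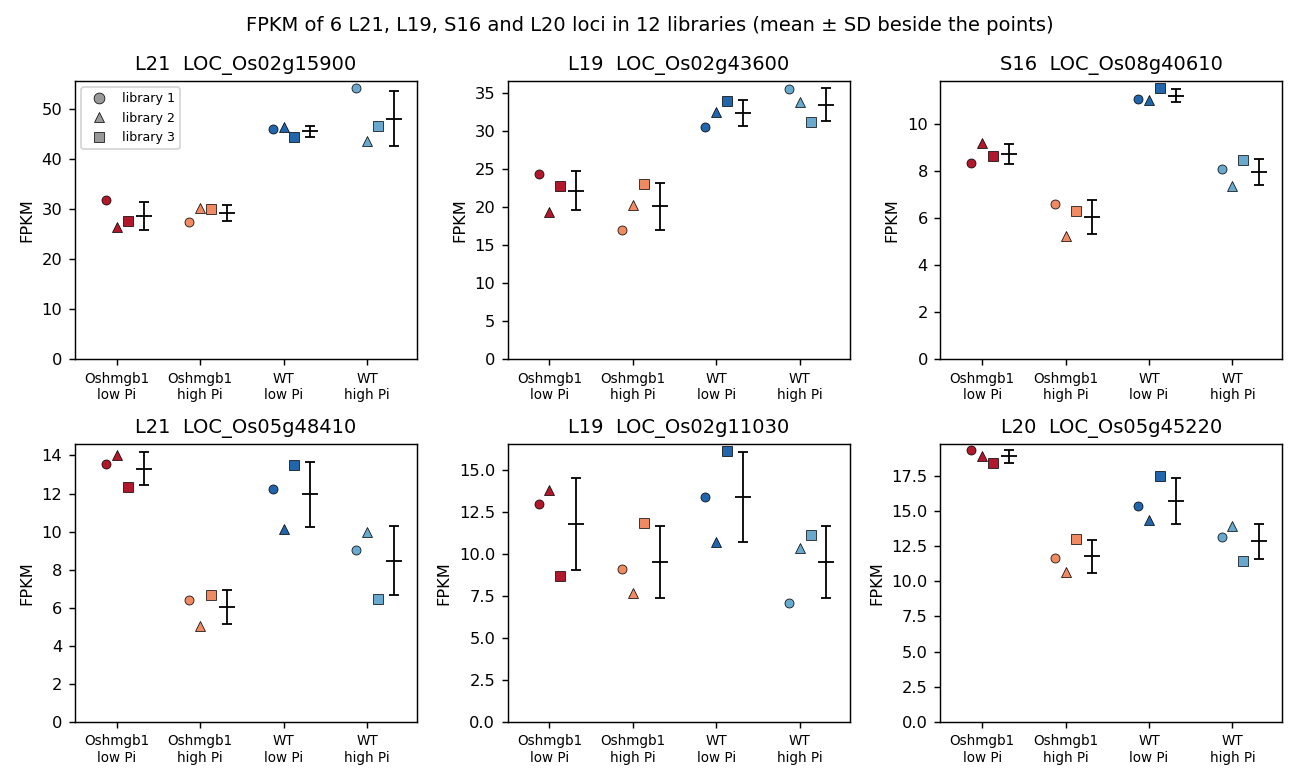
FPKM of 6 loci in the 12 libraries, with the mean and SD of each group (n = 3) beside the points. L21 LOC_Os02g15900 and L19 LOC_Os02g43600 are lower in both mutant groups than in both WT groups, while L21 LOC_Os05g48410, L20 LOC_Os05g45220 and S16 LOC_Os08g40610 are higher at low Pi, and L19 LOC_Os02g11030 has overlapping groups.

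Among the copies, S7 at LOC_Os04g16886 had 5.88, 3.45 and 4.7 FPKM in WT at low Pi, against 11.7, 8.75 and 10.1 FPKM in WT at high Pi. The low-Pi libraries were all below the high-Pi ones (log2 fold -0.99 ± 0.26 SE, adjusted p = 0.0291, limma). The other S7 copies called were LOC_Os04g16856 (-0.96 ± 0.26 SE, adjusted p = 0.0338, limma) and LOC_Os04g16712 (-0.78 ± 0.21 SE, adjusted p = 0.0326, limma). These calls were lost in 7 of 21 alternatives for LOC_Os04g16886, 7 of 21 for LOC_Os04g16856 and 8 of 21 for LOC_Os04g16712.

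S14 at LOC_Os10g21244 had 6.03, 3.86 and 3.43 FPKM in WT at low Pi, against 9.14, 8.07 and 8.09 FPKM in WT at high Pi, with no overlap (-0.82 ± 0.20 SE, adjusted p = 0.0226, limma). S14 at LOC_Os10g38238 fell by a similar amount (-0.79 ± 0.23 SE, adjusted p = 0.0412, limma). Its call was lost in 8 of 21 alternatives, and that of LOC_Os10g21244 in 5 of 21. L14, which lies at the interface of the subunits, fell least: LOC_Os04g16828 had 1.04, 1.06 and 1.04 FPKM in WT at low Pi, against 1.64, 1.81 and 1.51 FPKM in WT at high Pi (-0.37 ± 0.11 SE, adjusted p = 0.0458, limma). The L14 copy LOC_Os08g15276, with the same values in 7 of 12 libraries, was called as well (-0.35 ± 0.10 SE, adjusted p = 0.048, limma). The LOC_Os04g16828 call was lost in 14 of 20 alternatives, including the omission of any 1 WT library. Its WT values at low Pi lay near the filter at an FPKM of 1.

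Summed by protein, all 16 tested names were lower in WT at low Pi and 3 fell: L14 (-0.52 ± 0.12 SE, adjusted p = 0.014, limma), L16 (-1.03 ± 0.30 SE, adjusted p = 0.0412, limma) and S14 (-0.83 ± 0.23 SE, adjusted p = 0.0341, limma). L16 is a protein of the tRNA-binding side of the large subunit. S7 missed the threshold when its 8 copies were summed (-0.97 ± 0.30 SE, adjusted p = 0.0574, limma). The sum over all 60 copies was 175, 114 and 128 FPKM in WT at low Pi, against 271, 221 and 242 FPKM in WT at high Pi. Every low-Pi library was below every high-Pi library of WT.

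In the mutants the same sum was 269, 267 and 147 FPKM at low Pi, against 268, 260 and 453 FPKM at high Pi. The first and second mutant libraries had nearly the same sum at both supplies, and only the third library of each group stood away from it. No copy was called in the mutants, and the median log2 fold of the copies was -0.33 with all libraries but -0.04 without the third library of both mutant groups. Both libraries were picked from the values of these same copies. Without both, a choice made after the data were seen, 22 of 41 tested copies fell in WT at low against high Pi, in place of 7. The median log2 fold of the copies in WT was then -0.49, against -0.48 with all libraries. Of all tested genes, 977 of 17487 fell in WT without both, against 858 of 17630 with all libraries. The cause of the larger count was not tested.

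**Figure D4:**
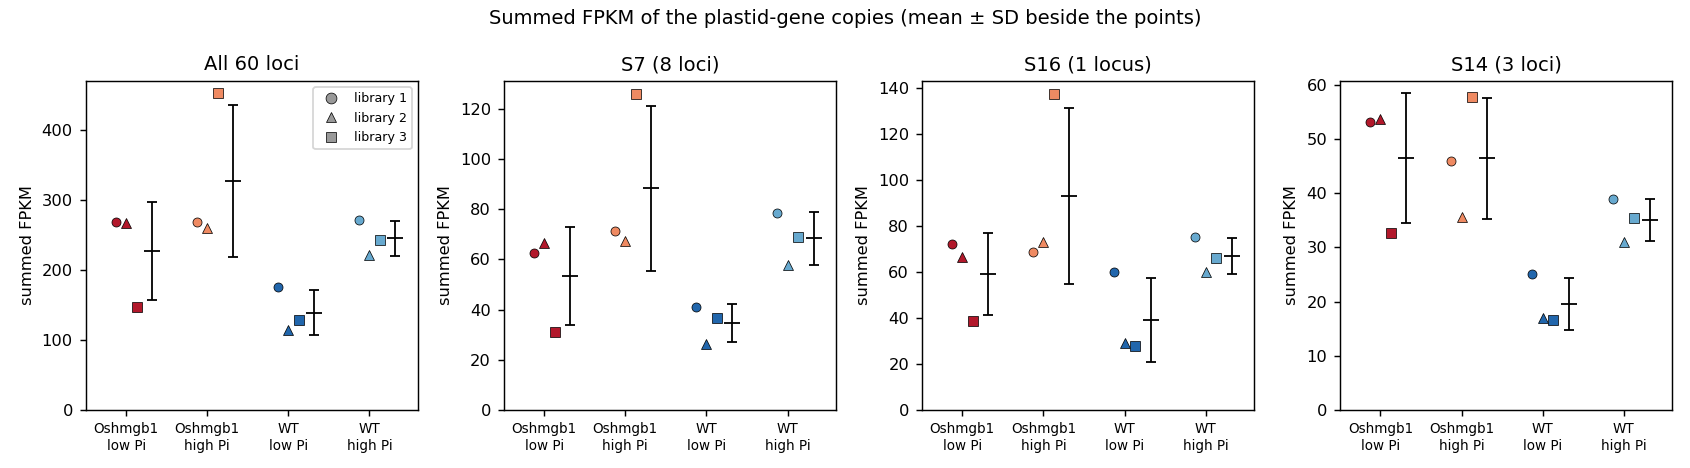
Summed FPKM of all 60 plastid-gene copies and of the S7, S16 and S14 copies in each library, with the mean and SD of each group (n = 3) beside the points. The third mutant library is the lowest at low Pi and the highest at high Pi in every panel, and the WT libraries at low Pi sum to 114 to 175 FPKM over all 60 loci.

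With bulk leaf RNA, fewer cells of a type and less RNA per cell cannot be told apart. Readouts of the hour of day moved with the phosphate supply, and 1 of them with the genotype. LOC_Os08g06110, an LHY-like clock gene that peaks around dawn, averaged 68.6 FPKM in the mutants at low Pi and 476 FPKM in the mutants at high Pi, and in WT 37.7 FPKM at low Pi and 275 FPKM at high Pi. LOC_Os08g06110 was also higher in the mutants than in WT (log2 fold 0.87 ± 0.15 SE at low Pi with an adjusted p of 0.00424, and 0.79 ± 0.15 SE at high Pi with an adjusted p of 0.0189, limma). LOC_Os01g08700 (GIGANTEA), a clock gene that peaks late in the day, averaged 294 FPKM in the mutants at low Pi and 163 FPKM in the mutants at high Pi, and in WT 304 FPKM at low Pi and 179 FPKM at high Pi. No label gives the time of day at which leaves were taken, and its part in the results on phosphate or genotype was not tested.

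At low Pi in the mutants against WT, the S14 copies rose and an L21, an L19 and an S16 locus outside the copies fell. Of the 67 loci, 3 rose and 3 fell, where 4.72% of all tested genes were called higher and 11.1% lower. No other copy was called, and the 3 that fell were L21 at LOC_Os02g15900, L19 at LOC_Os02g43600 and S16 at LOC_Os08g40610. All 44 copies had a positive log2 fold with a median of 0.36, which was 0.59 without the third mutant library at low Pi and 0.59 over 41 copies without the third library of both mutant groups. The 23 other loci had a median of -0.07, the same as all genes at -0.07. Limma gave an unadjusted p below 0.05 for 15 of 67 (22.4%), against 31.4% of all tested genes.

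S14 at LOC_Os10g38238 had 20.5, 21.1 and 12.1 FPKM in the mutants at low Pi, against 9.39, 6.36 and 6.42 FPKM in WT at low Pi (log2 fold 1.15 ± 0.23 SE, adjusted p = 0.00821, limma). S14 at LOC_Os10g21244 had 12.0, 12.4 and 8.02 FPKM in the mutants at low Pi, against 6.03, 3.86 and 3.43 FPKM in WT at low Pi (1.13 ± 0.20 SE, adjusted p = 0.00607, limma). S14 at LOC_Os04g16745 had 20.7, 20.4 and 12.5 FPKM in the mutants at low Pi, against 9.63, 6.78 and 6.76 FPKM in WT at low Pi (1.10 ± 0.22 SE, adjusted p = 0.00858, limma). In all 3, the lowest mutant library, the third, was still above the highest WT library. The 3 copies lie in 3 runs, 1 on chromosome 4 and 2 on chromosome 10, and their values ran in parallel over the 12 libraries (Pearson's r 0.982 to 0.997, a description over libraries that share their groups and possibly their reads).

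Summed, the 3 S14 copies had 53.2, 53.8 and 32.7 FPKM in the mutants at low Pi, against 25.1, 17.0 and 16.6 FPKM in WT at low Pi. S14 was the only one of the 16 summed proteins to pass the test (log2 fold 1.199 ± 0.227 SE, adjusted p = 0.00723, limma), and all 16 were positive. The more abundant S16 copy, LOC_Os10g21196, had 72.0, 66.5 and 38.5 FPKM in the mutants at low Pi, against 59.9, 29.0 and 27.6 FPKM in WT at low Pi. Its groups overlapped and it did not pass the test (0.63 ± 0.34 SE, adjusted p = 0.226, limma). Without the third mutant library at low Pi, 15 of 44 copies rose, where 671 of all 17553 tested genes did. Without the third library of both mutant groups, 22 of 41 copies rose, where 830 of all 17487 tested genes did. These libraries were picked from the values of the same copies.

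L21 at LOC_Os02g15900 had 31.8, 26.5 and 27.5 FPKM in the mutants at low Pi, against 46.0, 46.3 and 44.3 FPKM in WT at low Pi. The mutant libraries were all lower, by 0.66 on the log2 scale at the mean (log2 fold -0.66 ± 0.10 SE, adjusted p = 0.003, limma). L19 at LOC_Os02g43600, which in bacteria sits where the 2 subunits meet, had 24.4, 19.3 and 22.8 FPKM in the mutants at low Pi, against 30.6, 32.6 and 34.0 FPKM in WT at low Pi. These groups did not overlap either (-0.53 ± 0.12 SE, adjusted p = 0.0139, limma). The L19 call was lost under both other scalings of the libraries and without the second mutant library at low Pi or the third WT library at low Pi, while the L21 call stayed in all 22 alternatives.

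S16 at LOC_Os08g40610 was lower by less: 8.35, 9.16 and 8.63 FPKM in the mutants at low Pi, against 11.05, 11 and 11.5 FPKM in WT at low Pi (-0.33 ± 0.10 SE, adjusted p = 0.039, limma). Its call was lost in 11 of 22 alternatives, including the omission of any 1 of the 6 low-Pi libraries.

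At high Pi in the mutants against WT, the same L21 and L19 loci fell and no locus rose. Of the 67, 0 were called higher and 2 lower, where 1.3% of all tested genes were called higher and 2.27% lower, and 12 of 67 (17.9%) had an unadjusted p below 0.05, against 21.9% of all tested genes. L21 at LOC_Os02g15900 had 27.4, 30.1 and 30.0 FPKM in the mutants at high Pi, against 54.1, 43.5 and 46.5 FPKM in WT at high Pi (a log2 fold of -0.70 ± 0.10 SE, adjusted p = 0.0088, limma). L19 at LOC_Os02g43600 had 16.9, 20.3 and 23.1 FPKM in the mutants at high Pi, against 35.5, 33.8 and 31.2 FPKM in WT at high Pi (-0.72 ± 0.12 SE, adjusted p = 0.014, limma). Both calls were lost in the fit to the high-Pi libraries alone. Both loci were lower in all 6 mutant libraries than in all 6 WT libraries. The 2 comparisons of mutants with WT share no library, but their p-values rest on 1 estimate of the spread per gene over all 12 libraries.

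PSRP6 (LOC_Os11g34940), a small protein of the plastid large subunit, came nearest to a further call at high Pi. It had 21.5, 17.5 and 29.0 FPKM in the mutants at high Pi, against 37.3, 42.3 and 31.5 FPKM in WT at high Pi. The groups did not overlap, and the adjusted p just missed the threshold (-0.70 ± 0.18 SE, adjusted p = 0.0504, limma). It was called when the third mutant library at high Pi was left out, which brought the count of loci that fell to 3.

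Both loci that fell at both supplies have a second locus of the same name. The second L21 locus, LOC_Os05g48410, did not pass the test in the mutants against WT (0.15 ± 0.16 SE, adjusted p = 0.557 at low Pi, and -0.42 ± 0.16 SE, adjusted p = 0.152 at high Pi, limma). The second L19 locus, LOC_Os02g11030, averaged 11.8 ± 2.75 FPKM in the mutants and 13.4 ± 2.69 FPKM in WT when Pi was low (SD, n = 3 each). When Pi was high it averaged 9.52 ± 2.12 FPKM in the mutants and 9.5 ± 2.16 FPKM in WT (SD, n = 3 each). Its groups overlapped at both supplies. Whether the loci of a pair differed in their response was not tested.

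At high Pi no copy was called in the mutants against WT. The median log2 fold of the copies was 0.28, with 42 of 44 positive, against -0.02 over all genes, and it was 0.10 without the third library of both mutant groups. The sum over all copies was 268, 260 and 453 FPKM in the mutants at high Pi, against 271, 221 and 242 FPKM in WT at high Pi. Only the third mutant library lay above the WT libraries.

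No locus passed the test of a difference between the phosphate responses of the mutants and WT, the interaction. Of the 67, 0 were called in either direction, where 1.49% of all tested genes were called higher and 2.14% lower. At an unadjusted p below 0.05, limma marked 5 of 67 (7.46%), against 18.9% of all tested genes. Over the copies, the median difference of the log2 folds was 0.16 with 34 of 44 positive, and 0.49 with 40 of 41 positive and 1 called when the third library of both mutant groups was left out. The smallest adjusted p belonged to S14 at LOC_Os10g21244, with a difference of the log2 folds of 0.85 ± 0.29 SE (adjusted p = 0.136, limma). It was called, at an adjusted p of 0.0483, only when the first WT library at low Pi was left out. L21 at LOC_Os05g48410 (0.57 ± 0.22 SE, adjusted p = 0.19, limma) and L20 at LOC_Os05g45220 (0.37 ± 0.15 SE, adjusted p = 0.202, limma) followed. Of the calls made in 1 genotype or at 1 supply, none can therefore be called particular to it.

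**Figure D5:**
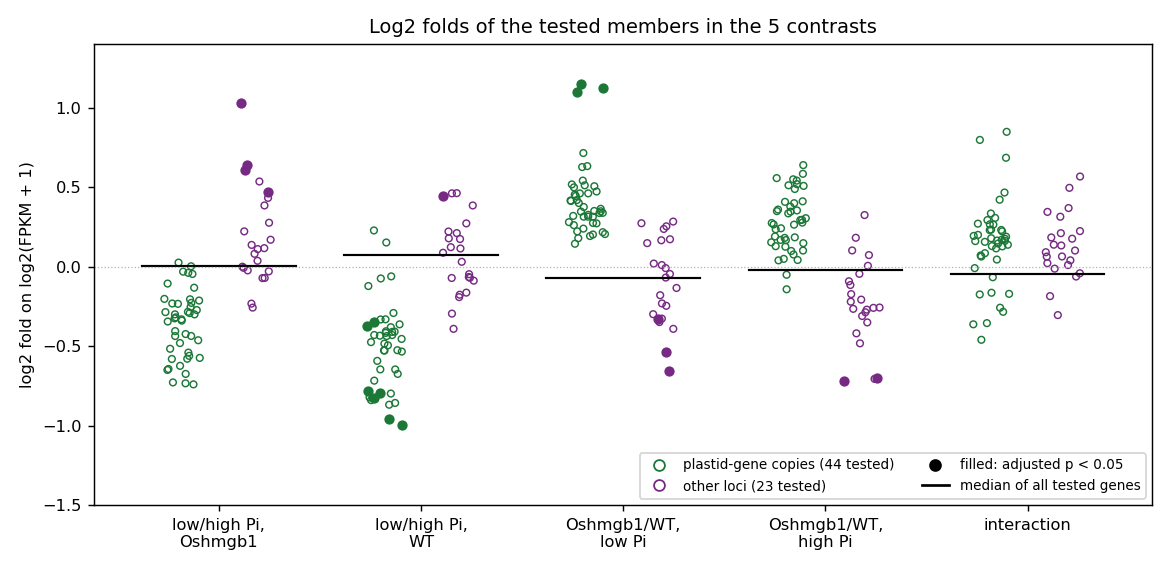
Log2 fold on the log2(FPKM + 1) scale of each tested locus in the 5 contrasts, plastid-gene copies at the left and other loci at the right of each contrast, with filled points at an adjusted p below 0.05 and a bar at the median of all tested genes. Interaction is the log2 fold of low against high Pi in the mutants minus that in WT. The copies lie mostly below the bar in both contrasts of low against high Pi and above it in both contrasts of mutants against WT.

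Other genes that may serve organellar translation were picked by words in their descriptions alone, and not all of these name an organelle. Their counts can be read against the same shares of all tested genes. These shares were 10.5% higher and 8.28% lower in the mutants at low against high Pi and 8.43% higher and 4.87% lower in WT. Of 29 tested loci with the names of bacterial translation factors, 2 rose and 3 fell in the mutants, and 2 rose and 1 fell in WT. Such a name does not show that the protein works in an organelle. An elongation factor Tu locus (LOC_Os04g20220), a factor that brings aminoacyl-tRNA to the ribosome, averaged 25.0 ± 0.57 FPKM in the mutants at low Pi and 41.7 ± 5.39 FPKM in the mutants at high Pi (SD, n = 3 each). In WT it averaged 34.9 ± 4.22 FPKM at low Pi and 32.9 ± 3.09 FPKM at high Pi (SD, n = 3 each). It fell in the mutants (log2 fold -0.71 ± 0.11 SE, adjusted p = 0.00195, limma), and it was the only gene of this list to pass the interaction test (-0.79 ± 0.16 SE, adjusted p = 0.0249, limma). A peptide chain release factor 2 locus (LOC_Os05g31160) rose in the mutants at low against high Pi (0.96 ± 0.17 SE, adjusted p = 0.00331, limma).

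Of 8 tested ribosome assembly factors, 3 rose in the mutants and 1 in WT at low against high Pi, none fell, and the list's median log2 folds were 0.39 in the mutants and 0.31 in WT. Ribosome-binding factor A (LOC_Os06g04610), described as a chloroplast precursor, matures the small subunit in bacteria and rose in both (0.43 ± 0.13 SE, adjusted p = 0.0443 in the mutants, and 0.49 ± 0.13 SE, adjusted p = 0.0323 in WT, limma). A locus described as ribosomal RNA large subunit methyltransferase J (LOC_Os03g60750) rose in the mutants (0.89 ± 0.16 SE, adjusted p = 0.00291, limma). None of 3 peptide deformylase loci was called in any contrast. Of 2 organellar aminoacyl-tRNA synthetases, the threonyl-tRNA synthetase locus LOC_Os08g19850 rose in the mutants at low against high Pi (0.44 ± 0.10 SE, adjusted p = 0.0104, limma).

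Among 140 tested loci described as ribosomal proteins with none of the 30S, 40S, 50S and 60S names, 23 rose and 1 fell in the mutants at low against high Pi, and 7 rose and 1 fell in WT. Mitochondrial L47 (LOC_Os06g03790), a large-subunit protein, rose in both (0.51 ± 0.10 SE, adjusted p = 0.00469 in the mutants, and 0.73 ± 0.10 SE, adjusted p = 0.000792 in WT, limma). In the mutants against WT, 3 of the 140 rose and 9 fell at low Pi (4.72% and 11.1% of all tested genes). At high Pi 0 rose and 3 fell (1.3% and 2.27%). An L10 locus (LOC_Os03g17580), whose bacterial counterpart anchors the stalk of the large subunit, was named for its small p. It fell in the mutants against WT at both supplies (-0.59 ± 0.10 SE, adjusted p = 0.0049 at low Pi, and -0.64 ± 0.10 SE, adjusted p = 0.0111 at high Pi, limma). Of 125 tested cytosolic 40S and 60S proteins, 17 rose and 4 fell in the mutants at low against high Pi, and 0 rose and 1 fell in WT, with medians of 0.22 in the mutants and 0.10 in WT. In the mutants against WT, 1 rose and 5 fell at low Pi, and none was called at high Pi.

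Markers of dividing cells (core histones and MCM proteins) were called in all 5 contrasts. Of 35 tested, 1 rose and 6 fell in the mutants at low against high Pi, and 9 rose and 0 fell in WT. In the mutants against WT, 0 rose and 10 fell at low Pi (4.72% and 11.1% of all tested genes), while 2 rose and 0 fell at high Pi (1.3% and 2.27%). In the interaction 0 were higher and 7 lower, with a median of -1.01 (1.49% and 2.14% of all tested genes were called). Their summed level was 1376 to 1653 FPKM in the mutants at low Pi, 1951 to 2333 FPKM in the mutants at high Pi, 1758 to 3729 FPKM in WT at low Pi and 1233 to 1464 FPKM in WT at high Pi. Of the 52 listed, 5 core histone loci were at 0 in all libraries and no MCM locus was. Photosynthetic markers (chlorophyll a-b binding proteins and the Rubisco small subunit) summed to 29890 to 40480 FPKM in the mutants at low Pi, 35290 to 49410 FPKM in the mutants at high Pi, 36990 to 61120 FPKM in WT at low Pi and 44930 to 45770 FPKM in WT at high Pi. Of 20 tested, 1 rose and 2 fell in each contrast of low against high Pi, and 1 rose and 1 fell in the mutants against WT at low Pi. The part of either marker list in the results on ribosomal proteins was not tested.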

How the data were processed

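FPKM values per gene were used as the authors deposited them, in tables of 32846 genes that hold each of the 12 libraries in 2 identical columns. StringTie 1.3.6, HISAT2 2.0.5 and CASAVA 2.17 are listed in the submitters' processing notes. Neither those notes nor the labels say which genome build was used, how reads that match several loci were handled, or whether poly(A) RNA was selected or rRNA removed. A further 2 columns in the tables match no label and were not used.

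Loci were chosen by the words 30S or 50S ribosomal protein in the description. The loci, the lists of other genes and the alternatives were chosen with earlier results of these data known. Genes below an FPKM of 1 in more than 9 of the libraries were left out, and limma 3.58.1 (R 4.3.3) was fitted to log2(FPKM + 1) (4 group means, empirical Bayes with a mean trend, all 12 libraries), and p-values were adjusted over all genes tested. The script was tested on simulated data. Tables and figures were made with Python 3.11.15, pandas 2.3.3, numpy 2.4.6 and matplotlib 3.10.9. Named loci were, per contrast, up to 6 called loci in each direction by log2 fold, or the 3 of smallest p where fewer than 3 were called, then the 6 most abundant loci, the 4 lowest tested loci, the tested copies and up to 3 genes per other list. L19 LOC_Os02g11030 and L14 LOC_Os08g15276 were named in addition after their values were seen.

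Alternatives were a pseudocount of 0.1, other filters and scalings, no mean trend, a fit to the groups compared, a replicate block, each library left out, and 2 added later: the third mutant libraries left out together, and copies summed by protein.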

Additional observations from a re-analysis of the deposited data

How the results depend on the processing

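Counts of called loci depended on the choices most for the copies. In WT at low against high Pi, 7 loci fell, and the count was 14 with a fit to the groups compared, 1 with no filter on low values, 1 with the replicate number as a block, 3 with copies summed by protein, 22 without the third mutant library at both supplies, and 0 to 15 with 1 library left out. It was 0 without the first or second WT library at high Pi, and 0 without the second WT library at low Pi or the third. It was 1 without the third WT library at high Pi, 4 without the first mutant library at high Pi, 12 without the third mutant library at high Pi and 15 without the third at low Pi. Counts without the third mutant libraries rest on a choice made from these same copies. Over all tested genes, 858 fell in WT, against 744 with a fit to the groups compared and 658 with the replicate block. That count was 909 without the first mutant library at high Pi, 1004 without the third there and 820 without the third at low Pi. In the mutants against WT at low Pi, 3 rose, and the count was 1 with copies summed, 22 without the 2 mutant libraries and 3 to 15 with 1 library left out. There 3 fell, and the count was 1 under median-of-ratios scaling, 1 under upper-quartile scaling and 1 to 3 with 1 library left out, the lowest being without the second mutant or the third WT library. Over all tested genes 1963 fell there, against 1375 under median-of-ratios scaling and 1407 under upper-quartile scaling. That count was 1025 without the second mutant library at low Pi and 810 without the third WT library at low Pi. At high Pi 2 fell, against 0 with a fit to the groups compared, where the count over all tested genes went from 401 to 68. In the mutants at low against high Pi 0 fell, against 1 with no filter. No locus was called higher in the interaction, against 1 without the 2 mutant libraries and 0 to 1 with 1 library left out. Over the 23 pairs of a named locus and a contrast, 416 values under the alternatives kept their direction and side of the threshold, 72 lost their call, 3 gained one and 0 reversed. The median log2 fold of all tested loci in WT at low against high Pi was -0.38, and -0.09 with a filter at an FPKM of 5. That filter kept 11 of the 44 tested copies and 22 of the 23 other loci. The median of the copies was -0.48 before it and -0.82 after it, and that of the other loci 0.09 and 0.06. The cause of a change was not tested.

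No pairing of libraries by replicate number was seen. Deviations of libraries with the same number correlated at -0.383 to 0.344, above 0.1 in 3 of 18 pairs. Those with other numbers correlated at -0.357 to 0.31, and 3 of 12 libraries correlated best with their own number. Whether libraries shared a batch was not tested.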
